A study of Mus musculus with 6 samples.

Results

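The 53 genes described here encode hydrolases and membrane proteins of the lysosome, and all 53 were measured among 19938 genes. They were taken from a list of symbols chosen with earlier results of these data known. Each was read from a probe set with that symbol alone. Where a gene had several, the one with the highest mean over all 6 arrays was used. Macrophages were sorted from mouse tibialis anterior muscle 2 days after injection of cardiotoxin, a snake toxin that destroys muscle fibres and sets off their regeneration. CD45+ blood-lineage cells were enriched on magnetic beads and sorted by 2 surface antigens into a Ly6C+ F4/80low subset and a Ly6C- F4/80high subset, below F4/80low and F4/80high cells. Both subsets came from each of 3 animals, so 6 arrays were compared, 3 per subset. All animals were of the strain labelled B6.129P2-Lyzstm1(cre)Ifo/J, which carries Cre recombinase at the lysozyme locus and in which Cre is made by myeloid cells. No floxed allele, age, sex or pooling is given in the sources used here, and no uninjured muscle is compared here.

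The lysosome is the acid compartment in which cells take apart what they have swallowed and their own worn parts. Its soluble hydrolases each cut 1 kind of bond, so that proteins, glycans and lipids are dismantled in ordered chains of steps, and inherited loss of a single enzyme causes storage of its substrate. A heavily glycosylated membrane protects the cell and holds the transporters through which the products leave. In injured muscle, macrophages clear dead fibres through this compartment. Transcripts were measured here, not enzyme activity, and in RNA of sorted cells a smaller share of a cell type and less RNA per cell cannot be told apart.

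Values are log2 expression levels after RMA, the authors' normalization, and differences are F4/80high minus F4/80low on that scale, with the standard error (SE) from limma. A gene was called at a limma adjusted p under 0.05 over all genes. The arrays of a subset correlated at 0.990 to 0.993 over probe sets and those of different subsets at 0.979 to 0.982. With 3 arrays per subset, precision is set by their number. A background of 5.44, the 95th percentile over 1196 genes of olfactory and vomeronasal receptors, was exceeded on all 6 arrays by all 53 genes.

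Transcripts of macrophage markers were present in both subsets. All 8 macrophage markers were above background on every array, with a mean level of 10.34 to 10.39 in F4/80high and 10.25 to 10.29 in F4/80low cells, 2 of them called higher and 4 lower. The median difference over the 8 was -0.21. Adgre1, which encodes the sorting antigen F4/80, was higher by 0.73 in the F4/80high cells. Like Adgre1, Ptprc on this list encodes an antigen used to isolate the cells, CD45. Lyz2, at whose locus these mice carry Cre, is on it too. Some markers of other cell types were lower in F4/80high cells, where 14.3% of all genes were called lower. Of 7 fibroblast and endothelial markers, 6 were lower in F4/80high cells and Kdr was not called, with a difference of 0.11. Dcn and Pdgfra were under background on all 3 F4/80high arrays, while Col1a1, Col3a1, Pecam1, Cdh5 and Kdr were above it on all 3. Dcn stood at 6.79, 5.70 and 5.55 on the F4/80low arrays of mice 1, 2 and 3. The list's mean level was 5.87 to 5.96 in F4/80high and 6.45 to 6.72 in F4/80low cells. Of 6 dendritic cell markers 2 were lower, with mean levels of 4.95 to 5.04 against 5.39 to 5.46. Of 10 neutrophil markers 2 were lower, with mean levels of 5.46 to 5.56 against 5.59 to 5.77, and 5 of the 10 were under background on all arrays. Of the 2 lower, Cxcr2 was among those 5. All 5 mast cell and basophil markers and 4 of 5 eosinophil markers were under background on all arrays, as were 5 of 6 lymphocyte markers. The part of these cells in the results below was not tested.

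Most lysosomal genes were higher in the F4/80high cells. Of the 53 genes, 44 were called higher, 2 lower and 7 were not called (limma adjusted p under 0.05). That is 83.0% higher, against 19.5% of all genes called higher, 14.3% called lower and 33.8% called in either direction. Because the list was chosen with earlier results of these data known, this contrast describes the list and is no independent support. Among the 12260 genes with a mean above background, 29.3% were higher and 15.7% lower. The median difference over the 53 genes was 0.52 on the log2 scale, against -0.06 over all genes. Taken mouse by mouse, that median came to 0.58, 0.52 and 0.57. Over all genes the median in mice 1, 2 and 3 was -0.06, 0.02 and -0.08. In 48 of the 53 genes the F4/80high array was the higher one in all 3 mice, and in 2 it was the lower one in all 3. The same share was not counted over all genes, so these 2 counts only describe the list.

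The sizes were moderate. A called difference of at least 2-fold was reached by 13 genes, or 24.5%, all higher in F4/80high cells, against 1.91% of all genes. The other 31 genes called higher differed by 0.23 to 0.98. In 45 genes every F4/80high array lay above every F4/80low array, in 2 every one lay below, and in 6 they overlapped. Over all genes 24.4% were separated upward and 23.6% downward.

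**Figure D1:**
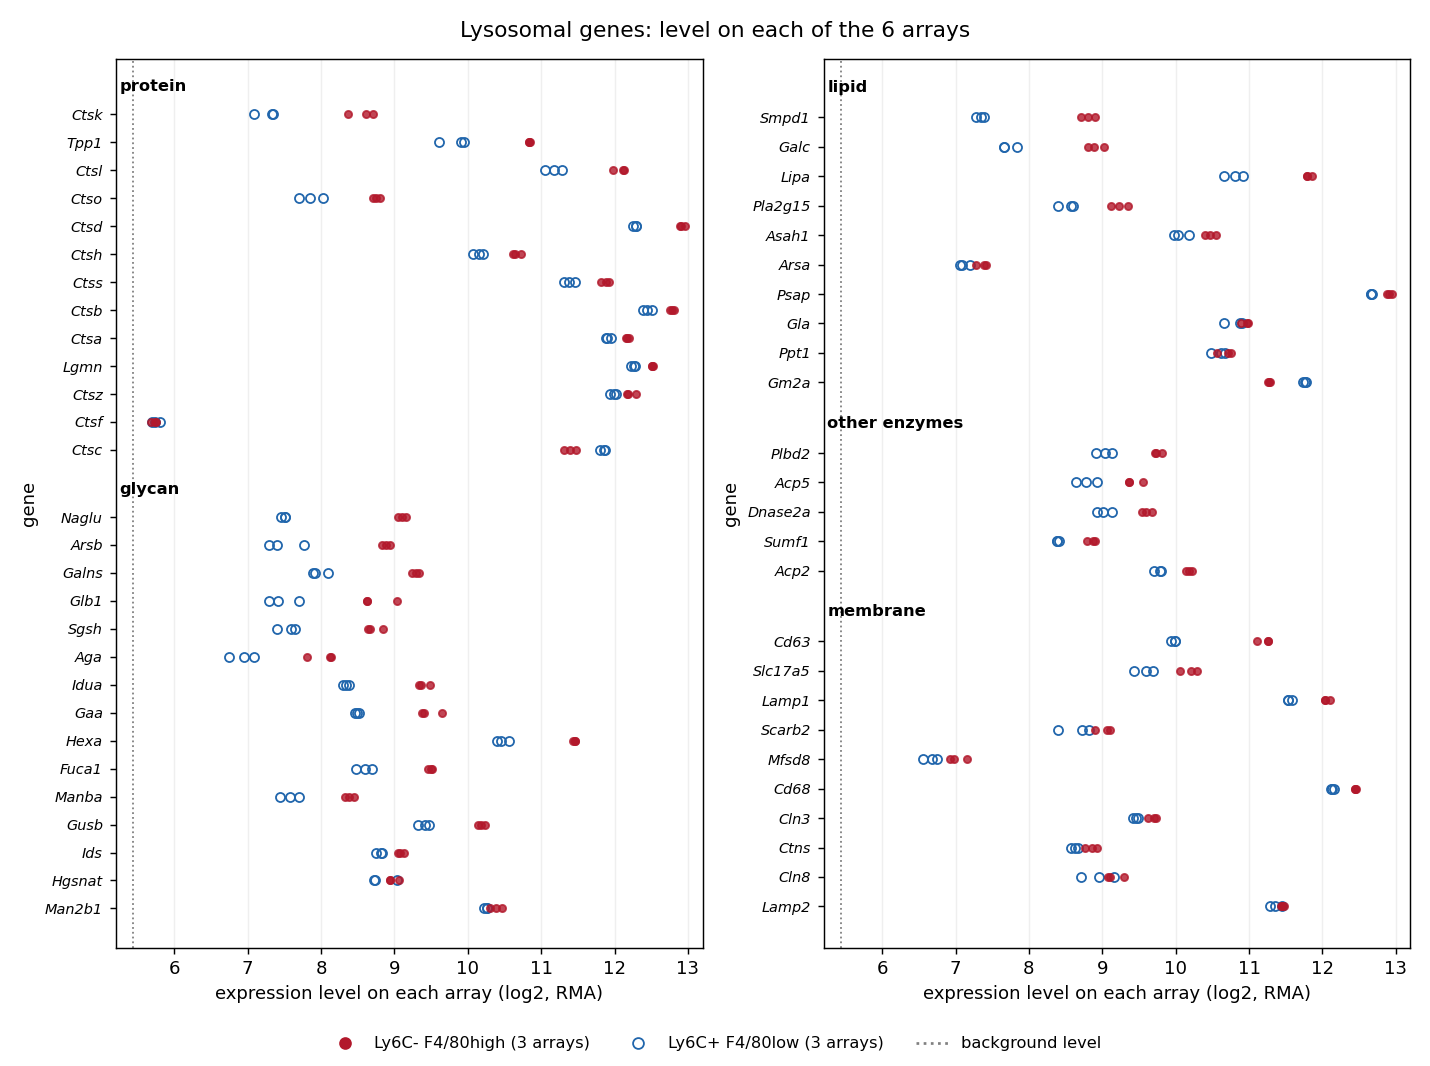
Level of each of the 53 genes on each of the 6 arrays (horizontal axis, log2 after RMA), with filled points for the 3 Ly6C- F4/80high arrays and open points for the 3 Ly6C+ F4/80low arrays, ordered by difference within each class. The filled points lie to the right of the open ones in 45 genes, and Ctsc and Gm2a show the opposite order.

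Some lysosomal promoters hold the hexamer CACGTG, which reads the same on both strands and is the core of the element bound by the MiT/TFE transcription factors, known regulators of lysosomal genes. Promoters were taken from RefSeq (GRCm38.p6, a short window around each gene's start), where 45 of the 53 genes were found. CACGTG was present in 14 of the 45, or 31.1%, against 8.09% of all 27025 genes in that table and 9.5% of the 15614 measured genes in it. The longer TCACGTGA, which contains it, was present in 5 of the 45, or 11.1%, against 1.12% of all and 1.52% of the measured genes. The median G+C content was 56.7% in the lysosomal promoters and 52.7% in all.

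The 100 bases before the start of 7 genes are printed 5′ to 3′ on the gene's strand, with CACGTG in capitals, to show promoters of genes that differed most and least. Naglu (chr11:101069994-101070093, + strand), Glb1 (chr9:114400978-114401077, + strand) and Sgsh (chr11:119355511-119355610, - strand) hold the hexamer and had the largest differences among the 14. Lamp1 (chr8:13159061-13159160, + strand) has 4 copies, the most among the 45. Ctsf (chr19:4855065-4855164, + strand) has 1 copy and was not called. Smpd1 (chr7:105554260-105554359, + strand), higher in F4/80high cells, and Gm2a (chr11:55097885-55097984, + strand), lower there, have none in these windows.
Naglu: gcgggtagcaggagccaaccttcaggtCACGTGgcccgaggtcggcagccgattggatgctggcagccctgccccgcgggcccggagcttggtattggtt
Glb1: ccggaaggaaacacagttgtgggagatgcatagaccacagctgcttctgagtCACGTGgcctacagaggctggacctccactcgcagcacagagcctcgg
Sgsh: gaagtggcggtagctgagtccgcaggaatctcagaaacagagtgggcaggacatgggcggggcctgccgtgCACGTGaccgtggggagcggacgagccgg
Lamp1: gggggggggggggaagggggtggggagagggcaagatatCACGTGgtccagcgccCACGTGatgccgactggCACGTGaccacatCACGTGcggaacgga
Ctsf: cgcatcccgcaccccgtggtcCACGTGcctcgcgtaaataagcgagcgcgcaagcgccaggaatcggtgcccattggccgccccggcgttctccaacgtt
Smpd1: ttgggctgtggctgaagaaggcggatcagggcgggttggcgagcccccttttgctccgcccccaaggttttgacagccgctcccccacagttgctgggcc
Gm2a: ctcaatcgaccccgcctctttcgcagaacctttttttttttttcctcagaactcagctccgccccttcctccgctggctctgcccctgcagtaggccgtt

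Genes with and without the hexamer were mostly higher in F4/80high cells. The 14 genes with it had a median difference of 0.49, with 12 called higher. The 31 without it had a median of 0.61, with 26 called higher and 2 lower. Over all measured genes the medians were 0.01 for 1483 with the hexamer, 27.3% of them higher, and -0.06 for 14131 without it, 19.9% of them higher, so the order of the medians was the opposite one. No test was made of either share, and a match of letters is a description of the sequence.

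Glycan-degrading enzymes had the largest median difference of the 5 classes. Of 15, 13 were higher in F4/80high cells, none was lower and 2 were not called, with a median of 0.98, or 1.98-fold, and 7 of them at least 2-fold higher. The medians were 0.49 for 13 proteases, 0.33 for 10 lipid-degrading proteins, 0.59 for 5 other enzymes and 0.33 for 10 membrane proteins. Among all genes 19.5% were called higher and 1.91% were called at least 2-fold higher. The classes were not tested against each other.

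**Figure D2:**
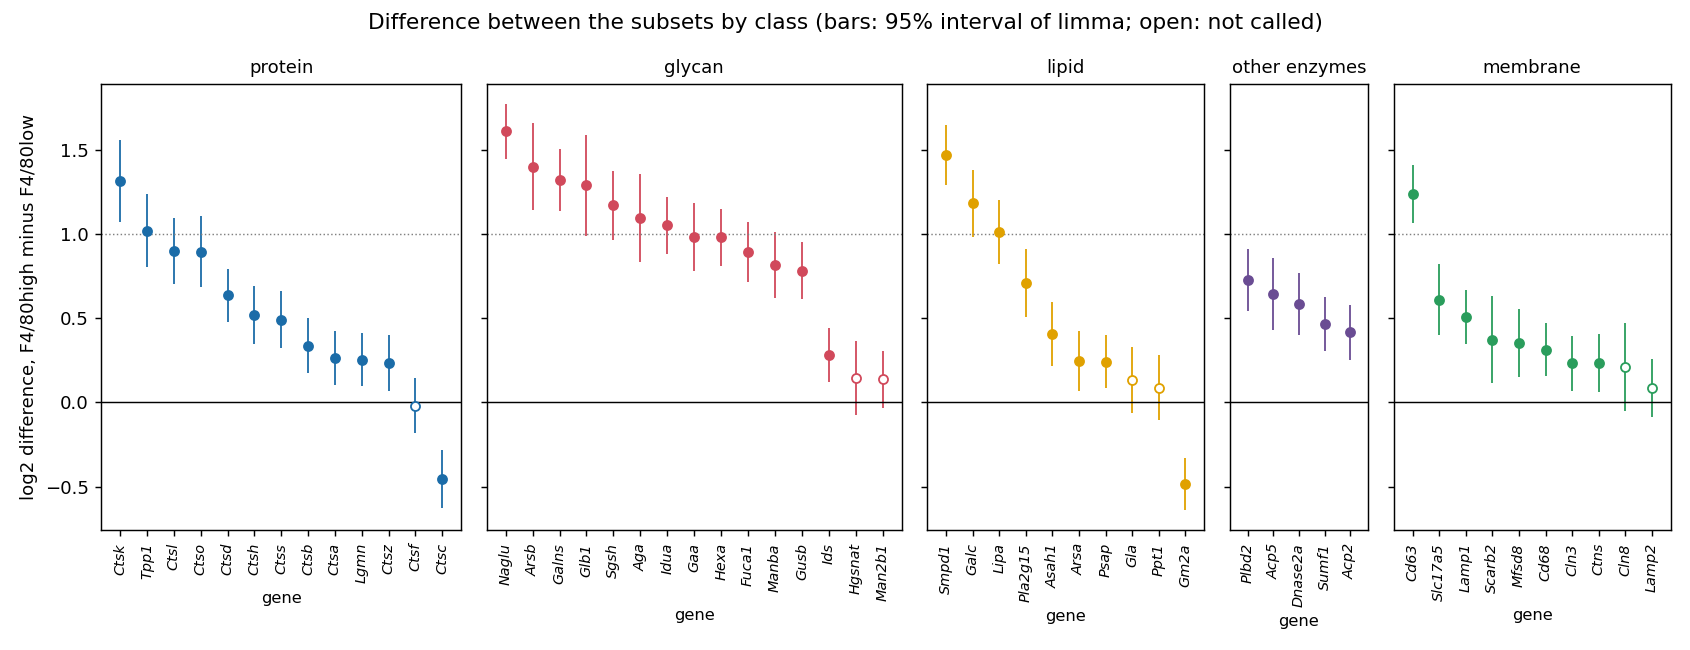
Difference of each gene (vertical axis, log2, F4/80high minus F4/80low) by class, with the 95% interval of limma as a bar, filled points for called genes and open points for the 7 that were not called; the dotted line marks a 2-fold difference. Of the 15 glycan enzymes 12 lie above 0.75 and 7 of them above the dotted line, while 8 of the 10 membrane proteins lie under 0.55.

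Among the glycan enzymes the largest difference was that of Naglu, which removes N-acetylglucosamine from heparan sulfate. It stood at 9.10, 9.05 and 9.16 in the F4/80high cells of mice 1, 2 and 3 and at 7.46, 7.51 and 7.50 in the F4/80low cells. The difference was 1.61 (SE 0.07, limma adjusted p = 4.33e-07), a ratio of 3.05, and the subsets were 1.53 apart at their closest. Arsb, the sulfatase of dermatan and chondroitin sulfate, was at 8.94, 8.83 and 8.89 against 7.76, 7.40 and 7.29, higher by 1.40 (SE 0.12, limma adjusted p = 1.55e-05). It is the 1 gene of the 53 with a second probe set, on which the difference was 1.34 (SE 0.16). Galns, which removes sulfate from keratan and chondroitin sulfate, was at 9.24, 9.34 and 9.29 against 7.92, 8.09 and 7.89, higher by 1.32 (SE 0.08, limma adjusted p = 2.59e-06). In all 3 genes the F4/80high arrays lay above the F4/80low arrays by more than the spread within either subset.

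Breakdown of heparan sulfate, the chain of matrix and cell-surface proteoglycans, needs enzymes that act in turn, and 5 of the 6 among the 53 genes were higher. This grouping was made after the values were seen. Of 2 further sulfatase genes of this chain outside the 53, Arsk was higher by 1.10 (SE 0.09) and Arsg was not called, with a difference of 0.19 (95% interval 0.02 to 0.37, limma adjusted p = 0.0865). Besides Naglu, Sgsh, the sulfamidase, was higher by 1.17 (SE 0.09), Idua, the iduronidase, by 1.05 (SE 0.08), Gusb, the glucuronidase, by 0.78 (SE 0.08) and Ids, the iduronate sulfatase, by 0.28 (SE 0.07). Hgsnat, the membrane enzyme that acetylates the chain end before Naglu can cut it, was not called. It stood at 9.06, 8.95 and 8.94 in F4/80high cells and at 9.04, 8.74 and 8.72 in F4/80low cells, so the subsets overlapped. Its difference was 0.15 (95% interval -0.07 to 0.36).

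The remaining glycan enzymes were higher too, apart from Man2b1. Glb1, the beta-galactosidase of keratan sulfate and gangliosides, was higher by 1.29 (SE 0.13), at 8.62, 9.03 and 8.63 against 7.29, 7.70 and 7.42. Its F4/80high and F4/80low arrays were both highest in mouse 2. Hexa, a subunit of beta-hexosaminidase, and Gaa, which frees glucose from glycogen, both differed by 0.98. Of the enzymes that trim N-linked glycans, Aga, which cuts the link to asparagine, was higher by 1.10 (SE 0.12), the fucosidase gene Fuca1 by 0.89 (SE 0.08) and the beta-mannosidase gene Manba by 0.82 (SE 0.09). Man2b1, the alpha-mannosidase of the same chain, stood at 10.38, 10.47 and 10.31 against 10.26, 10.26 and 10.22. Its subsets did not overlap but were 0.05 apart at their closest, and the difference of 0.14 (95% interval -0.03 to 0.31) was not called.

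The proteases were split in size, with 11 of 13 higher, 1 lower and 1 not called. Ctsk, a collagen-cutting cysteine cathepsin known from osteoclasts, was at 8.37, 8.62 and 8.71 in F4/80high cells and at 7.08, 7.34 and 7.34 in F4/80low cells. The difference was 1.31 (SE 0.11, limma adjusted p = 1.62e-05), a ratio of 2.49. Tpp1, which removes tripeptides from protein ends, was at 10.83, 10.85 and 10.84 on the F4/80high arrays and at 9.61, 9.90 and 9.95 on the others. It was higher by 1.02 (SE 0.10, limma adjusted p = 3.80e-05). Ctsl, a broad endopeptidase, was at 11.98, 12.11 and 12.13 against 11.05, 11.17 and 11.29, higher by 0.90 (SE 0.09, limma adjusted p = 4.23e-05). The F4/80high arrays were above the F4/80low arrays in all 3 genes, by at least 0.69.

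Other cathepsins called higher ranged from the cysteine cathepsin gene Ctso at 0.90 (SE 0.09) through the aspartic protease gene Ctsd at 0.64 (SE 0.07), the aminopeptidase gene Ctsh at 0.52 (SE 0.08) and Ctss, which trims the invariant chain of MHC class II, at 0.49 (SE 0.08). Ctsb, Ctsa, Lgmn and Ctsz differed by 0.23 to 0.34. These 4 genes code for a peptidyl dipeptidase, a carboxypeptidase that also protects other lysosomal enzymes, an asparaginyl endopeptidase that activates cathepsins, and a carboxypeptidase.

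Ctsc, the dipeptidyl peptidase that activates the serine proteases of granules, went the other way. It was at 11.39, 11.31 and 11.47 in F4/80high cells and at 11.87, 11.86 and 11.81 in F4/80low cells, so every F4/80high array lay below. The difference was -0.46 (SE 0.08, limma adjusted p = 0.00126), or 1.37-fold lower, and the sign was the same in all 3 mice. Ctsf, another cysteine cathepsin, was close to background, at 5.68, 5.75 and 5.74 against 5.73, 5.81 and 5.69. Its difference was -0.02 (95% interval -0.18 to 0.14), with overlapping subsets.

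Because Ctsk and the acid phosphatase gene Acp5 are also used as osteoclast genes, osteoclast markers were read beside them. Of 9, 1 was higher in F4/80high cells, 3 were lower and 5 were not called. The higher one was Atp6v0d2, a proton pump subunit of macrophages and osteoclasts, by 3.88 (SE 0.08). The fusion gene Ocstamp was lower, with a difference of -1.25 (SE 0.15). Calcr, also called lower, and Dcstamp were under background on all 6 arrays. The list's mean level was 6.65 to 6.79 in F4/80high and 6.47 to 6.60 in F4/80low cells, a mean that includes Atp6v0d2. The median difference over the 9 was -0.24, and 6 of the 9 were negative.

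The lipid-degrading proteins held both a strong rise and a fall. Of 10, 7 were higher, 1 was lower and 2 were not called. Smpd1, the acid sphingomyelinase, was at 8.91, 8.71 and 8.80 in F4/80high cells and at 7.35, 7.38 and 7.27 in F4/80low cells, a difference of 1.47 (SE 0.08, limma adjusted p = 1.23e-06) and a ratio of 2.77. Galc, which cuts galactose from galactosylceramide, was at 9.02, 8.89 and 8.81 against 7.66, 7.84 and 7.66, higher by 1.18 (SE 0.09, limma adjusted p = 8.15e-06). Lipa, the acid lipase that frees cholesterol and fatty acids from lipoproteins, was at 11.79, 11.85 and 11.79 against 10.92, 10.81 and 10.66, higher by 1.01 (SE 0.08, limma adjusted p = 1.65e-05). None of these 3 genes had overlapping subsets.

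Gm2a, the activator protein that lifts the ganglioside GM2 out of membranes for beta-hexosaminidase, was lower. It was at 11.27, 11.29 and 11.26 on the F4/80high arrays and at 11.77, 11.73 and 11.77 on the F4/80low arrays, a difference of -0.48 (SE 0.07, limma adjusted p = 0.000511), or 1.40-fold lower. Hexa, whose product works on the same ganglioside, was at 11.44, 11.46 and 11.46 against 10.46, 10.40 and 10.56, so the enzyme gene and its cofactor gene differed in opposite directions in all 3 mice. Psap, the precursor of the saposins, which present other sphingolipids to their hydrolases, was higher by 0.24 (SE 0.07).

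The phospholipase gene Pla2g15 was higher by 0.71 (SE 0.09), the ceramidase gene Asah1 by 0.41 (SE 0.09) and Arsa, the sulfatase of sulfatide, by 0.25 (SE 0.08). Gla, the alpha-galactosidase that is lacking in Fabry disease, was at 10.88, 10.98 and 10.97 against 10.66, 10.90 and 10.88, with a difference of 0.13 (95% interval -0.06 to 0.33). Ppt1, which strips fatty acids from proteins, was at 10.56, 10.71 and 10.76 against 10.67, 10.62 and 10.47, with a difference of 0.09 (95% interval -0.11 to 0.28). Neither was called, both had overlapping subsets, and the differences of Ppt1 in the 3 mice were -0.11, 0.09 and 0.29.

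All 5 enzymes of other kinds were higher. Plbd2, a phospholipase B-like protein, was at 9.81, 9.74 and 9.72 in F4/80high cells and at 8.92, 9.03 and 9.14 in F4/80low cells, higher by 0.73 (SE 0.08, limma adjusted p = 0.000105). Acp5, the tartrate-resistant acid phosphatase, was at 9.37, 9.55 and 9.37 against 8.78, 8.64 and 8.93, higher by 0.64 (SE 0.10, limma adjusted p = 0.000598). Dnase2a, which digests the DNA of engulfed cells, was at 9.68, 9.55 and 9.60 against 8.92, 9.01 and 9.13, higher by 0.59 (SE 0.08, limma adjusted p = 0.000431). Sumf1, the enzyme of the endoplasmic reticulum that activates sulfatases, was higher by 0.47 (SE 0.07), and Acp2, the lysosomal acid phosphatase, by 0.42 (SE 0.07). The sulfatase genes among the 53, Arsa, Arsb, Galns, Ids and Sgsh, were higher as well, by 0.25 to 1.40, a grouping also made after the values were seen. The call of Arsa was lost in 10 of the 21 alternatives and that of Ids in 4.

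Of the 10 membrane proteins 8 were higher and 2 were not called. Cd63, a tetraspanin of late endosomes, was at 11.11, 11.26 and 11.26 in F4/80high cells and at 9.99, 9.98 and 9.94 in F4/80low cells, a difference of 1.24 (SE 0.08, limma adjusted p = 2.63e-06) and a ratio of 2.36. Slc17a5, the sialic acid exporter, was at 10.29, 10.20 and 10.05 against 9.69, 9.59 and 9.44, higher by 0.61 (SE 0.09, limma adjusted p = 0.000771). Lamp1, a main glycoprotein of the lysosomal coat and the gene with 4 CACGTG copies printed above, was at 12.04, 12.04 and 12.10 against 11.54, 11.58 and 11.53. It was higher by 0.51 (SE 0.07, limma adjusted p = 0.000423). Each of the 3 had F4/80high arrays above all F4/80low arrays.

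Lamp2, the related coat protein needed for fusion with autophagosomes, was not called. It was at 11.43, 11.45 and 11.47 in F4/80high cells and at 11.36, 11.45 and 11.29 in F4/80low cells, with a difference of 0.09 (95% interval -0.08 to 0.26). Cd68, the macrophage member of the same family, was higher by 0.31 (SE 0.07). Scarb2, the receptor that carries glucocerebrosidase to the lysosome, was higher by 0.37 (SE 0.12), the orphan transporter-like Mfsd8 by 0.35 (SE 0.09), and Cln3, which is lost in juvenile Batten disease, and the cystine exporter gene Ctns by 0.23 each. The calls of Cln3 and Ctns were each lost in 12 of the 21 alternatives and that of Scarb2 in 9. Cln8, a protein of the endoplasmic reticulum that helps lysosomal enzymes leave it, was at 9.10, 9.07 and 9.30 against 8.71, 8.96 and 9.16. Its subsets overlapped, and the difference of 0.21 (95% interval -0.05 to 0.47) was not called.

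Differences were smallest in the genes with the highest signal. The 6 genes with a mean level under 8 had a median difference of 0.59, the 25 genes at 8 to 10 one of 0.73, the 15 genes at 10 to 12 one of 0.49, and the 7 genes at 12 and over one of 0.26. All 7 of the last were called higher, against 27.0% of all genes in that range. In the ranges below it 5, 23 and 9 of the 53 genes were called higher, against 15.6%, 36.1% and 27.3% of all genes. Over all genes in the same 4 ranges the medians were -0.08, 0.12, 0.03 and 0.01. Across the 53 genes the mean level and the difference had a Pearson's r of -0.37 and a Spearman's rho of -0.40, values that describe genes sharing the same 6 arrays.

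**Figure D3:**
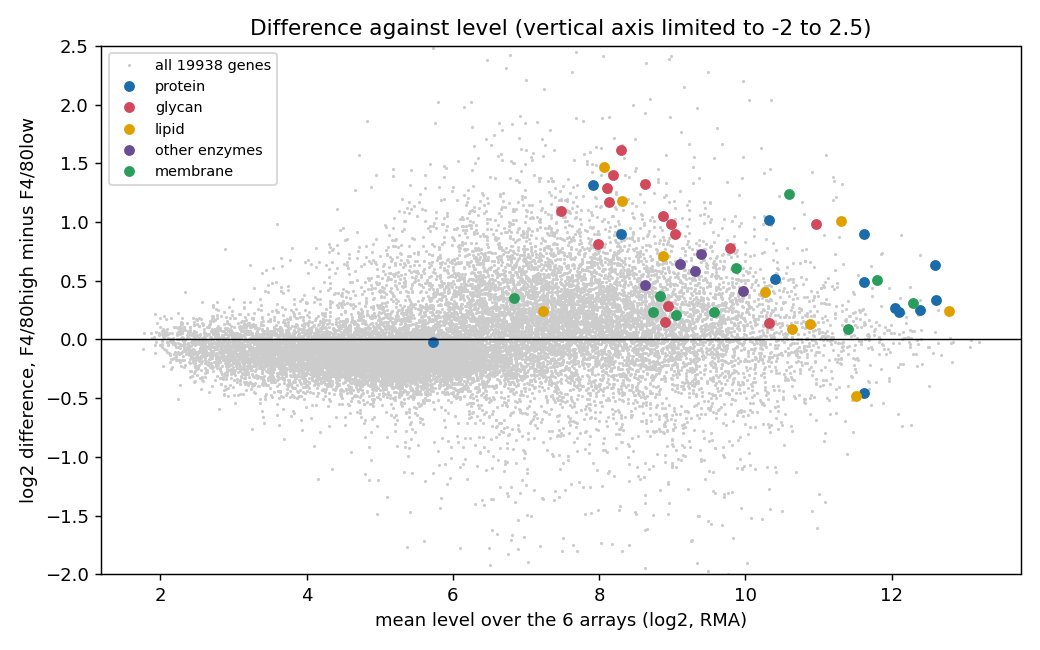
Difference (vertical axis, log2, F4/80high minus F4/80low) against the mean level over the 6 arrays (horizontal axis, log2), with all 19938 genes in grey and the 53 lysosomal genes coloured by class; 41 genes lie outside the plotted range of -2 to 2.5. The coloured points lie above 0 except for Ctsf, Ctsc and Gm2a.

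Calls on small differences were not all kept. Of the 46 called genes, 33 kept their call in all 21 alternatives, and none changed sign. The 13 that lost it in at least 1 had differences of 0.23 to 0.41: Ctsa, Ctsb, Ctsz, Lgmn, Ids, Arsa, Asah1, Psap, Cd68, Scarb2, Cln3, Mfsd8 and Ctns. Where their calls were lost, the differences were 0.15 to 0.44. Without a single array 10 of the 13 lost it, and Asah1, Cd68 and Ctsb lost it only when both arrays of a mouse were left out. With the mouse as a block, Ctsz (limma adjusted p = 0.0553), Cln3 (limma adjusted p = 0.0597) and Ctns (limma adjusted p = 0.0600) were no longer called. Leaving out the F4/80low array of mouse 1, 2 or 3 ended 5, 5 and 8 calls, and leaving out the F4/80high array of mouse 1, 2 or 3 ended 6, 3 and 8. Without both arrays of mouse 1, 2 or 3, 11, 9 and 13 calls were lost, with limma adjusted p-values up to 0.132, 0.135 and 0.225. Called higher were then 5 membrane proteins, 7 proteases and 4 lipid-degrading proteins without mouse 1, 4, 8 and 5 of them without mouse 2, and 3, 7 and 4 without mouse 3. Without the F4/80low array of mouse 3 alone, 4 membrane proteins were called higher. Over the 21 alternatives calls were lost most often for Ctsz (13), Cln3 and Ctns (12 each), Arsa (10), and Psap and Scarb2 (9 each). Kept in all 21 were the calls of 12 glycan enzymes, 8 proteases, 5 lipid-degrading proteins, 5 other enzymes and 3 membrane proteins.

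Genes that bring enzymes to the lysosome were mostly higher too. Of 13 measured delivery genes 11 were higher, none was lower and 2 were not called, with a median of 0.50. Among all genes 19.5% were called higher, and 36.1% of those with a mean level of 8 to 10. Sort1, which encodes the sorting receptor sortilin, was at 9.11 against 7.56 on average, higher by 1.55 (SE 0.10, limma adjusted p = 3.02e-06). Igf2r, the large receptor of the mannose 6-phosphate tag that marks lysosomal enzymes, was higher by 1.26 (SE 0.10, limma adjusted p = 1.37e-05). The genes of the enzymes that attach and uncover the tag, Gnptab, Gnptg and Nagpa, were higher by 0.50, 0.54 and 0.38.

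Hydrolases and related proteins of the lysosome outside the 53, among them Npc2 and Creg1, which are not hydrolases, were less uniform. The 22 measured had a median of 0.26: 11 were called higher, 2 were lower, and 9 did not pass. Among all genes 19.5% were called higher and 14.3% lower. In 2 of the 22, both means were under background. Siae, a sialic acid esterase, was higher by 1.65 (SE 0.07, limma adjusted p = 3.76e-07) and Arsk, described above, by 1.10 (limma adjusted p = 1.37e-05). Plbd1, the relative of Plbd2, was lower, at 9.24 against 11.56 on average, a difference of -2.32 (SE 0.08, limma adjusted p = 9.31e-08). Naaa, an amidase related to the ceramidase gene Asah1, was lower too, its difference being -0.97 (SE 0.13, limma adjusted p = 0.000268). Lyz2, the gene at whose locus these mice carry Cre, differed by 0.14 (SE 0.07, limma adjusted p = 0.167). What the Cre at this locus does to the Lyz2 signal was not tested.

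A further 27 lysosomal membrane proteins had a median of 0.40: 16 were called higher, 2 were lower, and 9 did not pass. The shares of all genes were again 19.5% higher and 14.3% lower. The potassium channel gene Tmem175 was higher by 0.86 (SE 0.08) and Slc46a3, of the folate transporter family, by 0.85 (SE 0.12). Sidt2, linked to the uptake of nucleic acids into lysosomes, was lower, with a difference of -0.58 (SE 0.08). Slc15a3, a peptide and histidine transporter, differed by -0.27 (SE 0.09, limma adjusted p = 0.0411), a call lost in 10 of the 21 alternatives, with a limma adjusted p of 0.137 without the F4/80high array of mouse 1.

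Inhibitor and regulator genes were read in the same way. Of 9 cystatin genes, which encode inhibitors of cysteine cathepsins, none was higher, 1 was lower and 8 were not called. In 6 of the 9 both means were under background, among them the lower one, Csta3, which lost its call in 13 of the 18 alternatives that kept the gene. The 3 above background, Cst3, Cst7 and Cstb, were not called, with differences of -0.0048, 0.22 and 0.20. Cst3, which encodes the secreted cystatin C, averaged 12.35 in both subsets, with a 95% interval of -0.16 to 0.15 for the difference. Of the 4 MiT/TFE factor genes Mitf was higher by 0.66 (SE 0.08, limma adjusted p = 0.000131), while Tfeb, Tfe3 and Tfec differed by 0.07, -0.01 and -0.07 and were not called. These are transcript levels; MiT/TFE factors are known to be controlled by their entry into the nucleus, which arrays do not measure.

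**Figure D4:**
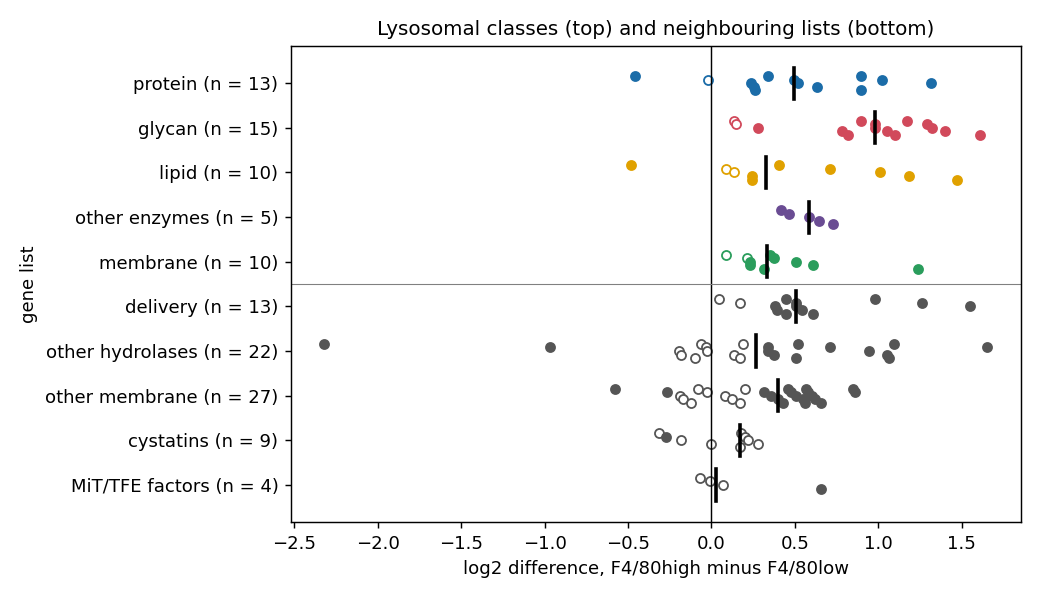
Difference of each gene (horizontal axis, log2, F4/80high minus F4/80low) in the 5 lysosomal classes (above the grey line) and in 5 neighbouring lists (below it), with filled points for called genes and a black bar at each list's median. The delivery list has a median of 0.50, close to that of the proteases at 0.49, and the median of the MiT/TFE factors is 0.03; that of the cystatins, 0.17, is the value of a gene under background, as are 6 of the 9.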

How the data were processed

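Total RNA of 6 sorted samples, 150 ng each, was amplified and labelled for Affymetrix arrays, per the labels' protocols. The deposited log2 values were made by the authors with RMA, per the submitters' processing notes. The sources used here name no software, settings or array model; values of 1.20 to 13.47 place them on a log2 scale. RMA compresses low signals, so differences at small levels can be understated, which was not tested here.

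Of 35556 probe sets 21789 had 1 symbol, 1621 several and 12146 none in the annotation given; those with 1 symbol gave 19938 genes. limma 3.58.1 in R 4.3.3 (lmFit, eBayes, no filter, two-sided) was fitted to all genes with Benjamini-Hochberg adjustment, and was tested on simulated data. The mouse number pairs the arrays, since both subsets came from the same animal. The paired arrays' deviations from their subset means correlated at 0.03, -0.08 and 0.09, no source states a paired test, and the block was an alternative.

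The members and lists were chosen with earlier results of these data known. Named with full values are, per class, the 3 largest called differences with 1 sign in all mice, every gene called lower and every gene not called, and from each neighbouring list the 2 largest called in each direction. Other genes named after their values were seen are Gnptab, Gnptg, Nagpa, Arsg, Cst3, Cst7, Cstb, Lyz2, Tfeb, Tfe3, Tfec, Ocstamp, Calcr, Dcstamp, Atp6v0d2, Dcn, Pdgfra, Col1a1, Col3a1, Pecam1, Cdh5, Kdr, Cxcr2, Ptprc and Adgre1. Genes of the lists with no probe set of their own are not analysed here. Alternatives were other scalings, filters, probe set rules, variance models, the mouse as fixed or random block, and leaving out arrays or mice.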

Additional observations from a re-analysis of the deposited data

How the results depend on the processing

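Over the 21 alternatives the number of lysosomal genes called higher ranged from 31 to 45 and that called lower was 2 in each. Membrane proteins called higher numbered 5 after quantile normalization, after cyclic loess and with all probe sets fitted together. Leaving out arrays or mice in turn gave 3 to 6 membrane proteins, 7 to 10 proteases, 4 to 7 lipid-degrading proteins and 12 to 13 glycan enzymes called higher, and 3998 (without mouse 3) to 6887 called genes in all. Counts without 1 mouse rest on fewer arrays. The replicate block (mouse) left 41 of the 53 genes called higher, and it changed no call among the 53 beyond those of Ctsz, Cln3 and Ctns. Ctsf turned positive after quantile normalization (0.0585), cyclic loess (0.0612) and a common median (0.0567), without the F4/80high array of mouse 1 (8e-04) and without the F4/80low array of mouse 2 (0.0118), and Ppt1 turned negative without mouse 3 (-0.0100). Over all runs that left out an array or a mouse, Ctsf ranged from -0.0527 to 0.0118 and Ppt1 from -0.0100 to 0.1875. Neither was called in any of these, and the cause was not tested. Man2b1 was called with a common median (0.21, limma adjusted p = 0.0447). A common median put 73.4% of all calls on the higher side, against 57.6%. The filter at the background level and the runs for genes of the neighbouring lists were chosen after seeing the data. The smallest difference whose call held throughout was 0.42. Ctsf has no value with the lower 50% of genes left out.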

Other observations

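The mean log2 levels of the remaining marker lists were as follows. The 5 eosinophil markers averaged 4.90 to 5.18 on the F4/80high arrays and 5.19 to 5.36 on the F4/80low arrays, with 2 called lower. The 5 mast cell and basophil markers averaged 4.04 to 4.27 against 4.33 to 4.37, with 2 called lower. The 6 lymphocyte markers averaged 4.01 to 4.21 against 4.29 to 4.31, with 1 called lower. The 7 muscle markers averaged 5.62 to 5.72 against 5.75 to 5.76, with 2 called lower (all calls by limma adjusted p). Over all genes 14.3% were called lower. Under background on all arrays were 4 of the 5 eosinophil and all 5 mast cell and basophil markers. So were 5 of the 6 lymphocyte and 2 of the 7 muscle markers. The array medians over all probe sets were 5.75 to 5.80 in F4/80high and 5.84 to 5.85 in F4/80low cells. What the differences mean for the share of these cells was not tested.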
